A study of Homo sapiens with 36 samples.

Results

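TET1 peaks at imprinted loci were taken from 6 deposited peak lists by position. A peak was counted when it shared at least 1 bp with 1 of 8 windows of the human build hg19, which together name 10 genes: H19, IGF2, KCNQ1OT1, CDKN1C, MEST, PEG3, GNAS, SNRPN, MEG3 and PLAGL1. The windows add up to 1230 kb and held 35 of the 62066 peaks in all lists. Of these, 15 came from the siNC list and 20 from the siCHD5 list. siCHD3, siCHD4, siMBD2 and siMBD3 had 0 peaks in any window. The rule reads position only, but the loci were proposed with earlier results of these data known.

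The study mapped TET1 by chromatin immunoprecipitation and sequencing (ChIP-seq) in HEK293T, an established human embryonic kidney line that carries the SV40 large T antigen. Cells of this 1 line received 1 of 6 small interfering RNAs (siRNAs): siCHD3, siCHD4 or siCHD5, named for ATPases of the NuRD chromatin-remodelling complex, siMBD2 or siMBD3, named for methyl-CpG-binding domain proteins of the same complex, or siNC, taken as the control because its label names no gene. Each siRNA group has 3 pull-down and 3 input libraries, 36 in all, but 1 peak list that carries replicates 1 to 3 together. No spread between replicates can therefore be given, every comparison below is between lists, and none has a test. Knockdown of the targeted genes was not analysed here.

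Imprinted genes have transcripts made mainly or only from the maternal or the paternal copy. The choice is kept by DNA methylation that the egg or the sperm laid down at control regions. At the IGF2 and H19 locus the insulator protein CTCF binds the control region on the unmethylated maternal copy, which keeps the enhancers from IGF2, while methylation blocks CTCF on the paternal copy. TET1 oxidises 5-methylcytosine, the step that begins active demethylation, and its CXXC domain takes to CpG-rich DNA. The peak lists do not separate the parental copies.

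Promoters of the named genes show how far these loci differ in CpG content, the substrate of both methylation and TET1. RefSeq's promoter table on GRCh38.p14 (300 bases, from 250 before to 50 after a gene's start) had entries for 6 of the 10 genes: H19, MEST, GNAS, SNRPN, MEG3 and PLAGL1. H19 had 1 entry, with 6 CpG, and the other genes had several that differed. CpG ran from 2 to 39 over 5 entries of PLAGL1, from 10 to 43 over 6 of GNAS, from 13 to 25 over 5 of MEST, from 2 to 18 over 4 of SNRPN and from 17 to 19 over 3 of MEG3. The median was 14.0 over 34796 distinct promoter sequences of all genes. The sequences below, for each gene the entry with the most CpG, are from a pair of genes whose windows held peaks, H19 and PLAGL1, and a pair whose windows held none, MEST and SNRPN. They run 5′ to 3′ on the gene's strand, which is the minus strand for H19 and PLAGL1 and the plus strand for MEST and SNRPN, with each CpG in capitals.
H19: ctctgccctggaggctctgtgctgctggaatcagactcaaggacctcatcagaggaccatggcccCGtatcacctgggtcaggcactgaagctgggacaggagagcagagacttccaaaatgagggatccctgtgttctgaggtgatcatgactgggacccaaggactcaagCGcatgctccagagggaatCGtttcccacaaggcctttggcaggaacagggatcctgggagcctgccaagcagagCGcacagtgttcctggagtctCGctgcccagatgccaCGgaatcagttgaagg
PLAGL1: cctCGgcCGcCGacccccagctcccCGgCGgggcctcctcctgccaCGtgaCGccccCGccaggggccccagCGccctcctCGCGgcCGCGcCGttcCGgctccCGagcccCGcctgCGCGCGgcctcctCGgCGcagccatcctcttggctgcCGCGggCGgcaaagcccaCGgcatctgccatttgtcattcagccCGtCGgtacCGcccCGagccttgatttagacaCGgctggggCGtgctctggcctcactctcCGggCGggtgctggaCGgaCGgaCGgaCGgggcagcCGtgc
MEST: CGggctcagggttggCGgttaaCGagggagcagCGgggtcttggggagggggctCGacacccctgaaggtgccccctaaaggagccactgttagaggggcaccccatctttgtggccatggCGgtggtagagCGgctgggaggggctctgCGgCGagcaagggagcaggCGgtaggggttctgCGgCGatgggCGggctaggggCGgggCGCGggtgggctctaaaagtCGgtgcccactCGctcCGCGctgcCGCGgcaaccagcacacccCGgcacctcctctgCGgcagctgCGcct
SNRPN: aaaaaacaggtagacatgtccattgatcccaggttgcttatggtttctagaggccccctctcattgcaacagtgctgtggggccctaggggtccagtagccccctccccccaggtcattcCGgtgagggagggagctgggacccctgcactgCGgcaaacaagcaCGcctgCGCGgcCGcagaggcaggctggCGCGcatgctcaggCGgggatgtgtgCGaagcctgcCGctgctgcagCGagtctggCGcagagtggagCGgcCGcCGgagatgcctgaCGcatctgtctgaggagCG
Since the richest entry was taken, these CpG numbers were not ranked against the table. A short form of the CTCF core, AGGNGGC, was searched on both strands as GCCNCCT too. In the richest entries it occurred at 2 places in PLAGL1 (starting at bases 33 and 124), 2 in MEST (47 and 71), 2 in SNRPN (53 and 99), 1 in GNAS (283) and at none in H19 and MEG3, and 35.8% of all promoters in the table held it. These entries were picked for the most CpG, while that share is over all promoters, so the motif counts cannot be read against it. A match is not a binding site. Because the table is of another build than the peaks, no peak could be placed on a promoter, and peaks are named by position within their window.

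TET1 peaks were found in 5 of the 8 windows, in both siNC and siCHD5, and the same 3 windows, MEST, PEG3 and SNRPN, held none in any list. The IGF2 and H19 window had 8 siNC and 9 siCHD5 peaks. The PLAGL1 window had 3 and 3, the KCNQ1OT1 and CDKN1C window 2 and 3, the GNAS window 1 and 4, and the MEG3 window 1 and 1. GNAS was thus the window in which the numbers of the 2 longer lists lay furthest apart. Per 100 kb the windows together held 1.22 siNC peaks, against 0.962 over chromosomes 1 to 22 and X, and 1.63 siCHD5 peaks, against 1.11. Without IGF2 and H19, left out after the data were seen, the densities were 0.714 for siNC, below that of the chromosomes, and 1.12 for siCHD5, close to it. Other windows lay above their chromosome too, but on few peaks: 3 in either list at PLAGL1, 1 in either list at MEG3 and 4 in siCHD5 at GNAS. PLAGL1 held 2.00 in both lists, against 0.975 (siNC) and 1.08 (siCHD5) over its chromosome, and MEG3 1.25 against 1.03 and 1.18. GNAS held 3.64 in siCHD5 against 1.28, but 0.909 in siNC against 1.10. KCNQ1OT1 and CDKN1C and the windows without peaks lay below their chromosomes in both lists. With 1 pooled list per siRNA, these densities could not be set against replicate error.

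**Figure D1:**
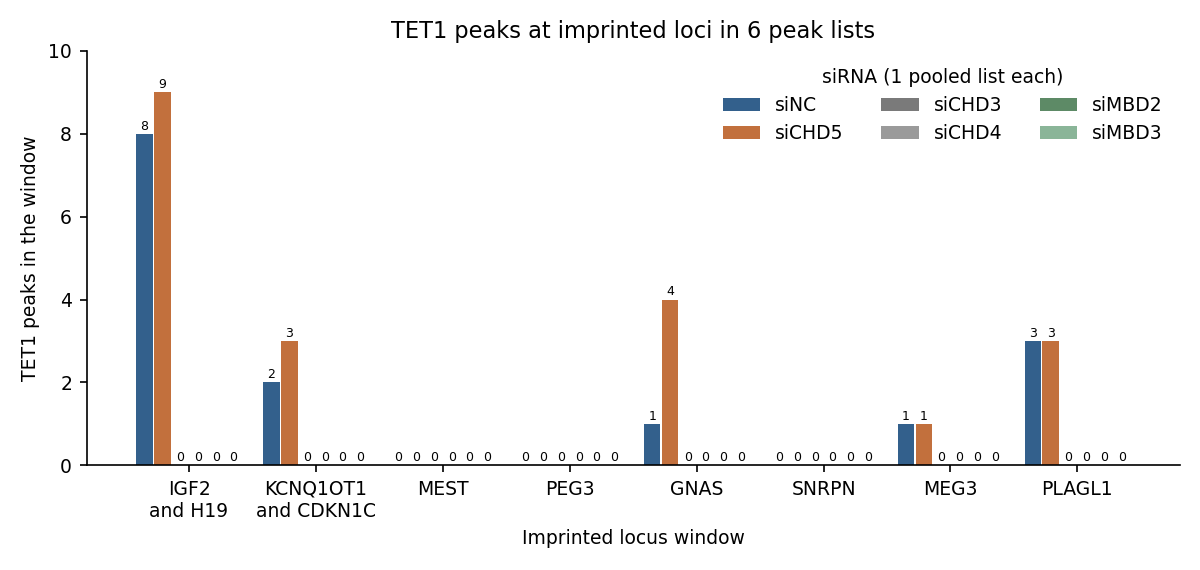
Number of TET1 peaks (vertical axis) in each imprinted locus window (horizontal axis) for the 6 siRNA lists, 1 bar per list with its count above it. Bars stand only for siNC and siCHD5, with 8 and 9 peaks at IGF2 and H19, and MEST, PEG3 and SNRPN have 0 in all 6 lists.

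The peaks at imprinted loci were of ordinary strength for their lists. Fold enrichment is the authors' ratio of pull-down over local control at the peak's summit, and it belongs to the list in which it stands. In the windows it ran from 4.04 to 13.2 in siNC, with a median of 7.15 against 6.72 over the whole siNC list. In siCHD5 it ran from 2.91 to 12.8, with a median of 6.79 against 6.90. Above the median of their list stood 8 of 15 siNC peaks and 10 of 20 siCHD5 peaks. Median peak width was 298 bp in siNC and 292 bp in siCHD5, against 300 bp and 301 bp over the lists.

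Overlap between siNC and siCHD5 in the windows was read against the whole lists, since most siNC peaks of the genome have a siCHD5 peak. Of the 15 siNC peaks in the windows, 12 were overlapped by siCHD5 (80.0%, exact Clopper-Pearson 95% interval 51.9 to 95.7), beside 85.4% of all siNC peaks. Of the 20 siCHD5 peaks, 12 were overlapped by siNC (60.0%, 36.1 to 80.9), beside 74.5% of all siCHD5 peaks. Both shares lie near their background, and both intervals, which are wide and cover counting error only, include it. Neither share is a result about imprinted loci.

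Peaks found in both lists mostly had higher folds than those found in 1, at these loci as over the lists. All 12 siNC peaks of fold 5 or more had a siCHD5 peak (94.0% of such peaks over the list), and the 3 siNC peaks of fold 4 to 5 had none (71.6% over the list). All 8 siCHD5 peaks of fold 7.5 or more had a siNC peak (95.1% over the list), as did 3 of 8 between 5 and 7.5 (74.7%) and 1 of 4 below 5 (40.2%). Peaks with a partner stood at nearly the same base in both lists. The distance between the partners' summits was 2 to 32 bp with a median of 7 bp, against a median of 10.0 bp over the 24294 overlapped siNC peaks of the genome.

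At IGF2 and H19 on chromosome 11, from 1.95 to 2.20 Mb, TET1 occupied 11 separate sites: 4 in both lists, 3 in siNC alone and 4 in siCHD5 alone. By peaks, 5 of 8 in siNC had a partner (62.5%, exact 95% interval 24.5 to 91.5), beside 85.4% of all siNC peaks. In siCHD5 5 of 9 did (55.6%, 21.2 to 86.3), beside 74.5% of all siCHD5 peaks. Both intervals include the share of the whole list, but they are wide and could exclude little. They also treat peaks as independent, while a pair in either list are summits of 1 interval. The sites of 1 list are therefore not read as a result about this locus. IGF2 encodes a fetal growth factor and H19 a long noncoding RNA, and H19 precedes IGF2 in the table's gene order, with INS after IGF2. The strongest siNC peak of the window lay at 1974713 to 1975122 with 13.2-fold enrichment, at percentile 94.4 of the folds in the siNC list, and its siCHD5 partner had 10.5-fold. Next in order of siNC fold was the first of a pair of summits within 1 interval, 2172648 to 2173488. The pair had folds of 7.33 and 6.26 in siNC, and 9.90 and 6.95 for the siCHD5 summits within 18 bp and 6 bp of them. A further shared site at 2058165 to 2058392 had 7.15-fold in siNC and 9.99-fold in siCHD5. The last, at 2194454 to 2194677, had 6.29-fold in siNC and 6.57-fold in siCHD5. The site at 1974713 thus had the higher fold in siNC, and all other shared summits of this locus had it in siCHD5. Each fold belongs to its own list, and this difference was not tested.

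Sites found in 1 list only at IGF2 and H19 lay below the median fold of that list, with 1 exception. Around 2.02 Mb siNC had 1 peak at 2021012 to 2021272 (4.57-fold, percentile 19.8), and siCHD5 had none over it. siCHD5 had instead a peak at 2021878 to 2022085 (4.47-fold, percentile 19.8), 605 bp from the siNC peak, and another at 2023335 to 2023566 (5.78-fold, percentile 35.8). Both lists thus had peaks within a stretch of under 3 kb, but no position there was in both. The other siNC peaks without a partner lay at 1970275 to 1970510 (4.86-fold) and 2095481 to 2095795 (4.04-fold), the latter 37.1 kb from the nearest siCHD5 peak. The other siCHD5 peaks without a partner lay at 2171454 to 2171701 (7.28-fold) and 2177756 to 2177967 (4.18-fold). The 7.28-fold peak is the exception: it stood at percentile 54.0 of its list, 946 bp before the interval with the pair of summits.

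**Figure D2:**
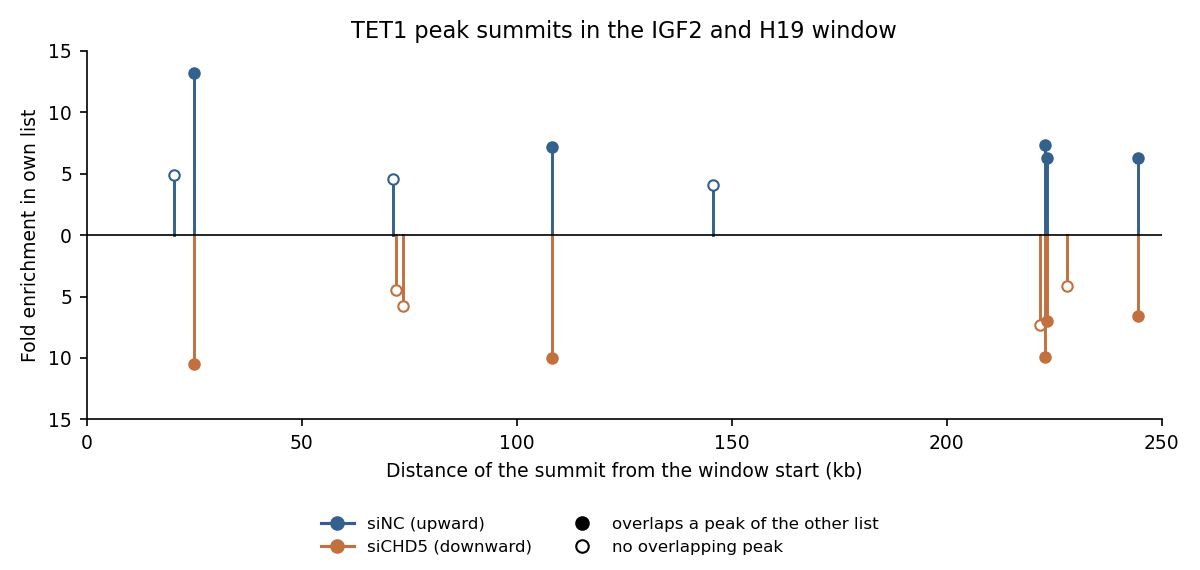
Fold enrichment in the peak's own list (vertical axis, siNC upward and siCHD5 downward) against distance of the summit from the start of the IGF2 and H19 window in kb (horizontal axis); filled points overlap a peak of the other list and open points do not. The tallest siNC point, 13.2-fold, faces a siCHD5 point of 10.5-fold, while the open siNC points lie between 4.04 and 4.86.

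KCNQ1OT1 and CDKN1C lie further along chromosome 11, from 2.60 to 2.92 Mb, and here TET1 peaks stood at the far end of the window only. KCNQ1OT1 is a long noncoding RNA made from the paternal copy that silences its neighbours there, among them CDKN1C, an inhibitor of cyclin-dependent kinases. The first 310 kb of the window held no peak in either list. Both lists then had a peak at 2909626 to 2909903 of the siNC list, with 7.45-fold in siNC and 11.2-fold in siCHD5 and summits 2 bp apart. Both had another at 2913374 to 2913596, with 6.29-fold in siNC and 9.99-fold in siCHD5. Between these, siCHD5 alone had a 5.78-fold peak at 2912579 to 2912890, 483 bp from the nearest siNC peak. This window therefore held 1 cluster of 3 sites within 5 kb.

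GNAS on chromosome 20, from 57.39 to 57.50 Mb, encodes the stimulatory G protein alpha subunit and has several promoters whose imprinting differs. It had 1 siNC peak, at 57445411 to 57445731, with 8.29-fold enrichment, and its siCHD5 partner had 6.63-fold. siCHD5 had 3 further peaks without a siNC peak, 2 of fold 5 to 7.5, where 74.7% of all siCHD5 peaks have a partner, and 1 below 5, where 40.2% do. They lay at 57439509 to 57439725 (5.89-fold), 57456109 to 57456405 (5.89-fold) and 57486916 to 57487128 (2.91-fold). The last was the weakest of all peaks at imprinted loci, with a −log10 q of 1.53 and at percentile 3.85 of the siCHD5 list. The others, at percentiles 37.5 and 37.4, lay below the median of their list as well.

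At MEG3 and PLAGL1 each peak had a partner in the other list, 1 of 1 and 3 of 3, where 85.4% of all siNC peaks and 74.5% of all siCHD5 peaks have 1, so these counts are near the background. MEG3, a maternally expressed long noncoding RNA on chromosome 14 (window 101.26 to 101.34 Mb), had a single site at 101317523 to 101317783 in siNC. Its fold was 7.72 in siNC and 8.94 in siCHD5, and the summits were 32 bp apart, the widest offset among the partners. PLAGL1, a zinc finger transcription factor gene on chromosome 6 (window 144.25 to 144.40 Mb), had 3 sites. The first, at 144261148 to 144261445, had 6.65-fold in siNC and 4.92-fold in siCHD5. The second, at 144263311 to 144263766, had 11.1-fold and 12.8-fold, and the third, at 144334579 to 144334920, had 9.87-fold and 12.1-fold. Both of these PLAGL1 sites were among the strongest at imprinted loci in both lists, at percentiles 87.7 and 81.4 in siNC and 90.9 and 88.8 in siCHD5.

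**Figure D3:**
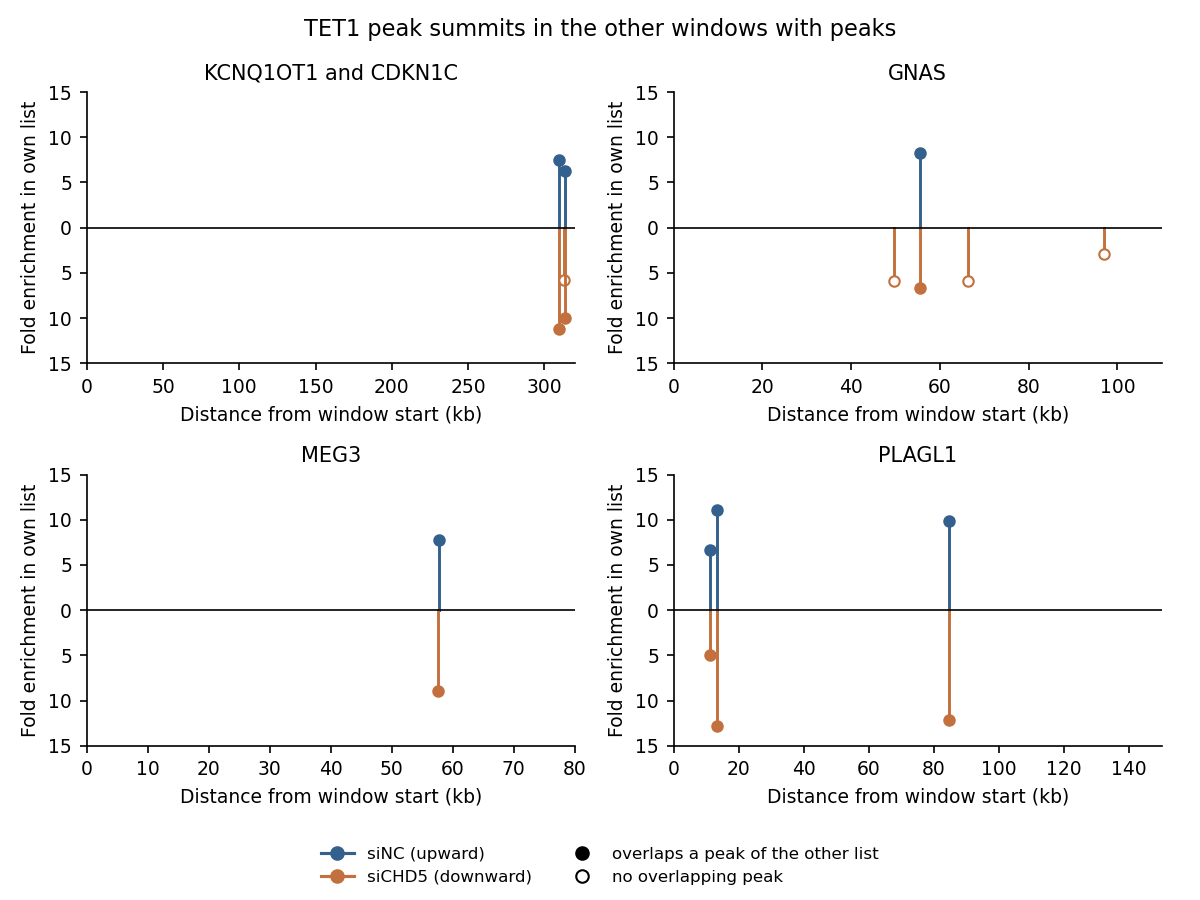
Fold enrichment in the peak's own list (vertical axes, siNC upward and siCHD5 downward) against distance of the summit from the window start in kb (horizontal axes) for KCNQ1OT1 and CDKN1C, GNAS, MEG3 and PLAGL1; filled points overlap a peak of the other list and open points do not. MEG3 and PLAGL1 have filled points only, and GNAS has 3 open siCHD5 points.

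MEST, PEG3 and SNRPN, genes expressed from the paternal copy, had no TET1 peak in their windows, and the nearest peak of either longer list lay 192 kb from a window. MEST belongs to the alpha/beta hydrolase family, PEG3 encodes a zinc finger protein and SNRPN a protein of small nuclear ribonucleoproteins in the Prader-Willi region. The MEST window (chromosome 7, 130.11 to 130.16 Mb) lay in a stretch of 498 kb between consecutive siNC peaks and of 463 kb between siCHD5 peaks. The PEG3 window (chromosome 19, 57.30 to 57.37 Mb) lay in stretches of 887 kb and 706 kb. For SNRPN (chromosome 15, 25.05 to 25.25 Mb) the stretches were 2453 kb and 1641 kb. The median distance between consecutive peaks was 48.1 kb in siNC and 42.1 kb in siCHD5. A stretch that holds a window cannot be shorter than the window, which is 50.0 kb for MEST, 70.0 kb for PEG3 and 200 kb for SNRPN, so these lengths had to exceed both medians. Stretches at least as long as that around SNRPN numbered 31 of 27938 in siNC (0.111%), against 0.866% for PEG3 and 2.92% for MEST. A window with no peak is also more likely to fall in a long stretch, so these shares describe the surroundings and support nothing further. How well reads map in these stretches was not analysed here.

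The 4 shorter lists were empty at all of these imprinted loci. siCHD3 held 140 peaks in all, siCHD4 110, siMBD2 358 and siMBD3 259. Over the genome they overlapped 0.179%, 0.169%, 0.250% and 0.176% of siNC peaks, and at imprinted loci each overlapped 0 of 15 (exact 95% interval 0 to 21.8%). A count of 0 of 15 lies near such backgrounds and is not a result about imprinted loci. Their nearest peaks were distant. On chromosome 11 the peak nearest to the IGF2 and H19 window lay 31.9 Mb away in siMBD2 and in siMBD3, and 49.4 Mb away in siCHD3 and in siCHD4.

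The strength of the window peaks was also set against the lowest peak each shorter list still contains. The lowest −log10 p was 5.88 in siCHD3, 6.31 in siCHD4, 5.52 in siMBD2 and 5.65 in siMBD3. All 15 siNC peaks at imprinted loci reached each of these values in their own list, as did 19 of the 20 siCHD5 peaks, the exception being the 2.91-fold GNAS peak. Over the whole lists 92.7% to 94.8% of siNC peaks and 91.6% to 94.0% of siCHD5 peaks did, so these counts are near the background. Depth may differ between lists, and the values say nothing on why the windows were empty in the shorter ones. The lists hold no read totals. The lowest control background, a relative measure that moves with read number and fragment length, was 2.50 reads in siNC, 2.80 in siCHD5, 2.29 in siCHD3, 2.72 in siCHD4, 1.83 in siMBD2 and 2.21 in siMBD3, and its part in the empty windows was not tested.

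Reads behind the peaks were few, which limits how finely their folds can be ranked. From fold and −log10 p, both the number of pull-down reads stacked at a summit (its pileup) and the control level there can be solved. At imprinted loci the pileup ran from 15 to 61 reads in siNC (median 28.0) and from 11 to 61 in siCHD5 (median 34.0). Over the whole lists the medians were 33.0 in siNC and 37.0 in siCHD5. Few reads are thus not particular to these loci, though the medians here were lower. The control background was 2.50 to 5.28 reads in siNC and 2.80 to 5.76 in siCHD5. At 7 of the 15 siNC peaks and 7 of the 20 siCHD5 peaks this background stood at the lowest value of the list. Those are larger shares than over the whole lists, 18.0% of siNC and 21.6% of siCHD5 peaks, a difference that was not tested. At such peaks fold moved with the pileup alone. The shared MEG3 site, for example, rested on 26 reads over 2.50 in siNC and 33 over 2.80 in siCHD5. The siNC peak at 2021012 in the IGF2 and H19 window rested on 15 reads, and the siCHD5 peaks at 2021878 and 2023335 on 16 and 21. The third PLAGL1 site rested on 61 reads in both lists, the most of any peak at imprinted loci. These are reads over 3 pooled libraries, and duplicate handling is not given in the sources used here.

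**Figure D4:**
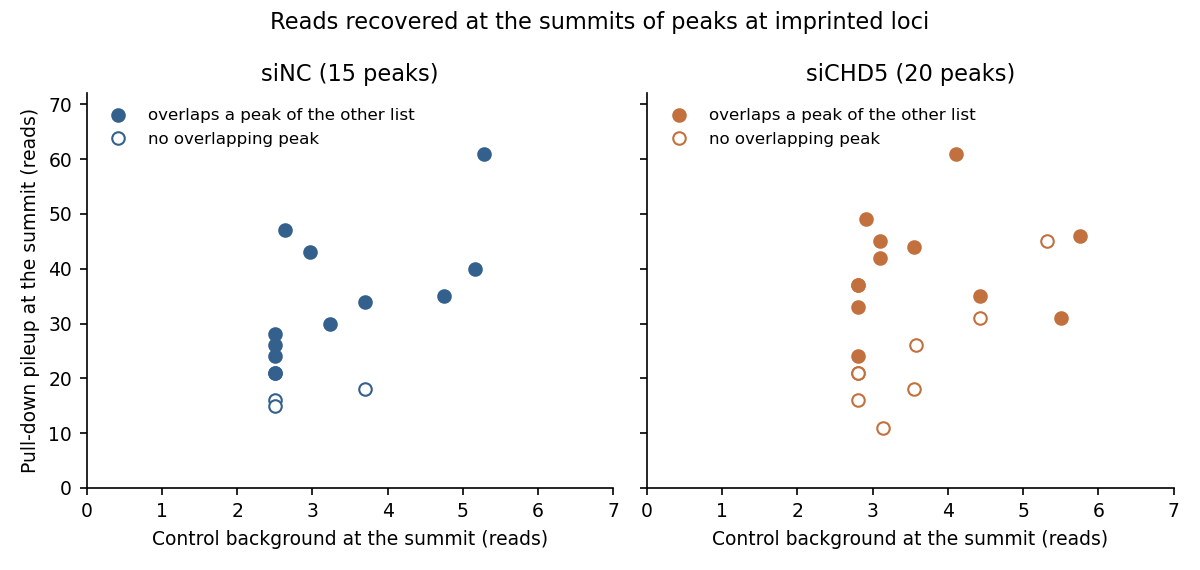
Pull-down pileup at the summit in reads (vertical axis) against control background at the summit in reads (horizontal axis) for the 15 siNC and 20 siCHD5 peaks at imprinted loci, 1 point per peak, with some points on top of each other; filled points overlap a peak of the other list. The open siNC points have 15 to 18 reads, below all filled siNC points, while 1 open siCHD5 point reaches 45 reads.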

How the data were processed

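TET1 ChIP-seq and input chromatin were sequenced from HEK293T cells given 1 of 6 siRNAs, with 18 pull-down and 18 input libraries, and 1 peak list per siRNA was analysed. The submitters' processing notes list the build hg19 and the tools MACS2 2.1.2, Bowtie2 2.3.4, deepTools 3.5.0, bedtools 2.25.0, FastQC 0.11.7 and SAMtools 1.9, with no roles. Settings, duplicate handling and filters on regions are not given in the sources used here. Lists were taken as called on pooled replicates, because the deposited peak names carry replicates 1 to 3 together. The deposited fold enrichment is a ratio of pull-down to control. Per summit the authors also gave −log10 of a p-value and of a q-value, both deposited. The score column, deposited by the authors as 10 times −log10 q cut to a whole number, was not used. A deposited peak with several summits is listed once per summit, and all were kept.

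Peaks were placed in windows and overlapped at a minimum of 1 bp, with coordinates counted from 1, in Python 3.11.15, pandas 2.3.3 and scipy 1.17.1. Shares carry exact Clopper-Pearson 95% intervals. Reads at a summit were solved from fold, with a pseudocount of 1, and the Poisson −log10 p, to a tolerance of 0.02. The overlap code was checked on siNC peaks and shifted copies of them, and read recovery on values simulated by the same formula. The latter checks the solving step only, not whether the deposited values follow that formula. No test between groups was run, since each group has 1 list. The members, windows and naming rule were chosen with earlier results of these data known. In windows of 6 or fewer siNC intervals all siNC peaks were named, and otherwise the 4 of highest fold and those of 1 list only. At IGF2 and H19 the remaining shared peak was named as well, after its values were seen, as were all siCHD5 peaks. Fold bins, the distances between consecutive peaks and the comparison with the lowest −log10 p of the shorter lists were chosen after the data were seen. Alternatives were a fold minimum of 4, a −log10 q minimum of 10, distinct intervals, wider windows and stricter overlap.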

Additional observations from a re-analysis of the deposited data

How the results depend on the processing

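Numbers of peaks in the windows and both overlap shares were recomputed under 36 alternatives, of which 12 are stricter filters on lists already at 0 and can only return 0. In 22 of the other 24 the value stayed within 1.5 times the reported count or within the interval of the reported share. Those intervals are wide, 51.9 to 95.7% for siNC and 36.1 to 80.9% for siCHD5, so staying within them says little. Widening each window by 50 kb at either end raised the siNC number from 15 to 23. With a −log10 q minimum of 10 in both lists, 100% of the 12 siNC peaks left were overlapped by siCHD5, against 91.7% over the whole list. siCHD3, siCHD4, siMBD2 and siMBD3 also had 0 peaks in the wider windows. These values, counted among the 24, could not have changed either. The nearest peak of these lists to any window lay 6.70 Mb away, in siMBD2 before PEG3. Leaving out the IGF2 and H19 window, an alternative chosen after seeing the data, lowered the density per 100 kb from 1.22 to 0.714 in siNC and from 1.63 to 1.12 in siCHD5. No paired analysis was possible because each siRNA has 1 pooled list without replicate numbers, and for the same reason no replicate could be left out. Peaks of 11 to 21 reads, among them those near 2.02 Mb, are the ones that the depth supports least.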

Other observations

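The nearest peaks outside the windows were also compared between siNC and siCHD5. At 10 of 16 positions, before and after each of the 8 windows, the nearest peaks of both lists overlapped, and at 6 they did not. Over the whole lists 85.4% of siNC peaks were overlapped by siCHD5 and 74.5% of siCHD5 peaks by siNC. A nearest pair can fail to overlap when either peak lacks a partner, so these shares are not the same measure. The tally is a description of the neighbours only. The overlapping neighbours lay on both sides of the IGF2 and H19, KCNQ1OT1 and CDKN1C, and MEG3 windows and after MEST, GNAS and PLAGL1 and before PEG3. The strongest stood 45.6 kb before the KCNQ1OT1 and CDKN1C window, with 12.9-fold in siNC and 14.2-fold in siCHD5, higher than any peak inside that window. Where the neighbours did not overlap, the siCHD5 peak was the nearer one at all 6 positions. The distances were 227 kb in siNC and 192 kb in siCHD5 before MEST, 164 and 163 kb before GNAS, 336 and 173 kb before PLAGL1, and 421 and 241 kb after PEG3. At SNRPN they were 1162 and 938 kb before the window and 1091 and 504 kb after it. siCHD5 is the longer list, with 32749 peaks against 28450, and these distances were not tested.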
